A study of Mus musculus with 6 samples.

Results

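The genes described here encode enzymes that hydroxylate and cross-link collagen, and they were followed in 6 RNA-seq libraries of mouse aortic smooth muscle cells (MASMCs). They were taken by name, as the rows of the expression table for Lox, Loxl1, Loxl2, Loxl3, Loxl4, Plod1, Plod2, Plod3, P4ha1 and P4ha2. All 10 were found among the 54532 genes of the table, each on 1 row. The cells came from the abdominal aorta of young adult wild-type mice and were used as passaged cultures. They were serum-starved and transduced with an adenovirus carrying a control plasmid (Ad-Con, n = 3) or a plasmid for overexpression of pyruvate dehydrogenase kinase 4 (Ad-PDK4, n = 3). Both groups were then treated with angiotensin II (Ang II), so untreated cells were not part of the comparison. The study asked how PDK4, a kinase that switches off the pyruvate dehydrogenase complex of mitochondria, changes the function of these cells.

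Collagen chains are modified on single residues before and after they are secreted. In the endoplasmic reticulum (ER), prolyl 4-hydroxylases convert prolines to hydroxyproline, which stabilises the triple helix. Lysyl hydroxylases (the Plod genes) convert lysines to hydroxylysine, which carries sugars and sets the kind of cross-link. Both belong to the 2-oxoglutarate-dependent dioxygenases and need iron, oxygen and ascorbate. Outside the cell, lysyl oxidases, which hold copper, oxidise lysine and hydroxylysine residues of collagen and elastin, and the resulting aldehydes form covalent cross-links. In the aortic wall these cross-links carry the tensile load.

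The libraries held 17588942 to 21861872 reads assigned to genes, and each enzyme was read from 732 to 16677 reads in a library. Values are FPKM, fragments per kilobase of gene scaled to sequencing depth, so that levels of different genes could be compared per length. The change of each gene was tested with limma on log2(FPKM + 0.1) over 13423 genes with a mean of at least 0.5 FPKM, and p-values were adjusted over all of them by the Benjamini-Hochberg method. The mouse Pdk4 gene itself was at 9.50, 10.4 and 10.1 FPKM in Ad-Con and at 7.67, 7.40 and 7.38 FPKM in Ad-PDK4 libraries, a log2 fold change of -0.42 (limma, SE 0.06, adjusted p = 1.1e-03). It was thus lower under the overexpression label, and directions below compare libraries by these labels, Ad-PDK4 against Ad-Con. Whether reads of the transduced insert were counted in this gene was not tested.

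Of 10 smooth muscle markers, 5 reached a mean of 0.5 FPKM, led by Acta2 and Cald1, while Myh11, Cnn1, Tagln, Des and Mylk did not. Their summed level was 172 to 173 FPKM in Ad-Con and 135 to 145 FPKM in Ad-PDK4 libraries. Within this list Acta2 and Tpm2 fell and Cald1 rose (log2 fold changes of -1.11, -0.33 and 0.36). Fibroblast markers reached 0.5 FPKM for 6 of 8 genes and summed to 311 to 360 against 248 to 289 FPKM. Of these, Dpt, Lum and Thy1 fell and Dcn rose (log2 fold changes of -1.36, -1.16, -0.86 and 0.83, all at a limma adjusted p below 0.05). Among 8 macrophage markers only Cd68 reached a mean of 0.5 FPKM. Ptprc, Tyrobp, C1qa and C1qb were at 0 in every library, and the list summed to 13.3 to 16.4 against 3.69 to 5.50 FPKM. Most of that sum was Cd68, with means of 14.2 FPKM in Ad-Con and 4.24 FPKM in Ad-PDK4 libraries. Csf1r, with a mean under 0.5 FPKM, went the other way, from 0.111, 0.268 and 0.395 to 0.630, 0.725 and 0.565 FPKM. Of 8 endothelial markers only Kdr reached a mean of 0.5 FPKM. Cldn5, Emcn and Tie1 were at 0, and the sums were 0.617 to 0.799 against 0.885 to 1.18 FPKM. The levels below are those of bulk cultures, in which fewer cells of a type and less RNA per cell cannot be told apart. The part of these marker differences in the enzyme changes was not tested.

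Promoter sequence was at hand for 5 of the 10 genes, from RefSeq (build GRCm38.p6), as 250 bases before and 50 bases after the start that RefSeq gives. For P4ha2 that start, and the whole window, lie inside the gene's interval in the expression table, so the window is not upstream of the gene as deposited. The windows of 4 are shown because they pair the enzymes by what was measured. P4ha1 and P4ha2, both alpha subunits, were higher together in Ad-PDK4 libraries, while the lysyl hydroxylases Plod3 and Plod1 moved in opposite directions. Capitals mark matches, on either strand, to ACGTG or GCGTG, which are core letters of the hypoxia response element bound by HIF, or to GAAANNGAA, a form of the interferon-stimulated response element. TGANTCA, the site of AP-1, was also searched.
P4ha1, chr10:59323046-59323345, plus strand: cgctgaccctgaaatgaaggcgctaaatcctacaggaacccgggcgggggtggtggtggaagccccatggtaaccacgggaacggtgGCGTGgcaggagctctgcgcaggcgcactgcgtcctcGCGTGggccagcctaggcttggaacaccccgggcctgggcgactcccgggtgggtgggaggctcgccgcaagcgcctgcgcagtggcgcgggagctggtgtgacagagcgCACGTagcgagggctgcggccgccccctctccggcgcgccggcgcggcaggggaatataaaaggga
P4ha2, chr11:54100674-54100973, plus strand: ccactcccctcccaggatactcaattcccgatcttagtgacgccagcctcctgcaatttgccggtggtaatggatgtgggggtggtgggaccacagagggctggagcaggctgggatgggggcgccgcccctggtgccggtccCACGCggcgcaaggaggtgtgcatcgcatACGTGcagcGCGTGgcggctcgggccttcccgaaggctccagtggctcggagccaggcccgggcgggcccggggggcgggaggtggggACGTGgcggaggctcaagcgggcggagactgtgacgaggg
Plod3, chr5:136986769-136987068, plus strand: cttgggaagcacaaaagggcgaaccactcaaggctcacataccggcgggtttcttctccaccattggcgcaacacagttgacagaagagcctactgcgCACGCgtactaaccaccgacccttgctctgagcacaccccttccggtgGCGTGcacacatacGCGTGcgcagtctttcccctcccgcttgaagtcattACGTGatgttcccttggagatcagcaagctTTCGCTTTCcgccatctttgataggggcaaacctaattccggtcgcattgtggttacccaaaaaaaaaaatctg
Plod1, chr4:147936727-147937026, minus strand: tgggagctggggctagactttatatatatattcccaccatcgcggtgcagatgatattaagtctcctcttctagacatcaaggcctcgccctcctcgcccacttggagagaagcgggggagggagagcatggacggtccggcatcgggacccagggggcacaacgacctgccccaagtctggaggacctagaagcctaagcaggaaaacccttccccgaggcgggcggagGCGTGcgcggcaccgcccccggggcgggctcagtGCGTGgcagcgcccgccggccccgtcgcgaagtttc
ACGTG was present once in the P4ha1 window, 16 bases before the RefSeq start, 2 times in the P4ha2 window and once in the Plod3 window. It was not in the Plod1 window or in that of Loxl4, the remaining gene. Over all 32851 promoter windows, 19.6% held it. GCGTG was in all 5 windows, beside 32.4% of all windows, with 2 matches in P4ha1 and 3 in Plod3. Only the Plod3 window held GAAANNGAA (8.56% of all windows), and none of the 5 held TGANTCA (7.81%). These matches are letters in a window and not measured binding.

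Of the 10 enzymes, 6 were higher in Ad-PDK4 libraries at an adjusted p below 0.05 (P4ha1, Lox, Loxl3, Plod3, P4ha2 and Loxl4), beside 21.8% of all genes tested. The 2 that were lower were Loxl2 and Plod1, beside 20.8% of all genes. Loxl1 and Plod2 did not pass the threshold. None of the 10 passed both that threshold and a 2-fold change, the limit used by the study, which 6.63% of genes passed. The groups did not overlap for 8 of the 10 enzymes, beside 54.3% of all genes. The median log2 fold change was 0.31 over the enzymes and 0.00 over all genes tested, and in each of the 3 enzyme families the paralogues differed in size or direction of change.

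**Figure D1:**
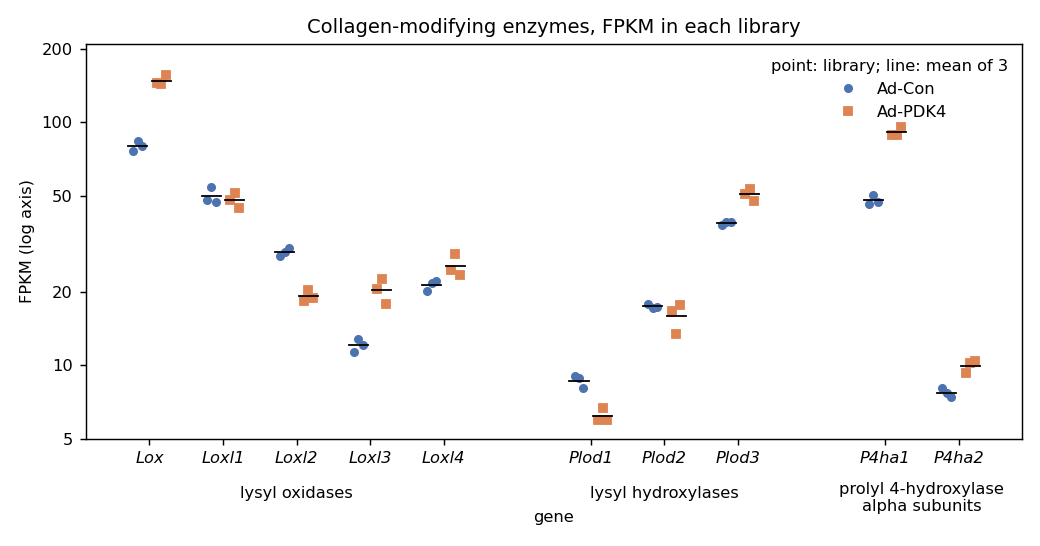
FPKM (log axis) of the 10 enzymes in each library, with circles for Ad-Con, squares for Ad-PDK4 and a line at the mean of 3 libraries. The squares lie above the circles for 6 genes, below them for Loxl2 and Plod1, and among them for Loxl1 and Plod2.

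Lox (ENSMUSG00000024529, chromosome 18, 52516069 to 52529867, minus strand) encodes the founding lysyl oxidase of collagen and elastin and was the most abundant of the 10 transcripts. It was at 76.1, 83.6 and 79.8 FPKM in Ad-Con and at 145, 143 and 157 FPKM in Ad-PDK4 libraries. All Ad-PDK4 libraries lay far above all Ad-Con libraries, with a mean of 148 ± 7.45 against 79.8 ± 3.71 FPKM (SD, n = 3). The fold was 1.86, a log2 fold change of 0.89 (limma, SE 0.06, adjusted p = 1.5e-05). Of all genes tested, 9.74% changed by as much or more in either direction.

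Loxl1 (ENSMUSG00000032334, chromosome 9, 58287738 to 58313186, minus strand) is the paralogue tied to elastic fibre upkeep and was the second most abundant lysyl oxidase. Its level was 48.1, 54.1 and 47.2 FPKM in Ad-Con and 48.2, 51.1 and 44.2 FPKM in Ad-PDK4 libraries. The groups overlapped and the log2 fold change was -0.06, with a 95% interval of -0.23 to 0.11 (adjusted p = 0.56, limma). Without Ad-Con replicate 2, its highest library, the log2 fold change was 0.0028, and without Ad-PDK4 replicate 2 it was -0.11.

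Loxl2 (ENSMUSG00000034205, chromosome 14, 69609068 to 69695834, plus strand) encodes a lysyl oxidase-like enzyme with scavenger receptor domains that cross-links type IV collagen of basement membranes. It was the lysyl oxidase that fell, from 28.1, 29.3 and 30.4 FPKM to 18.4, 20.5 and 18.9 FPKM. The fold was 0.659, a log2 fold change of -0.60 (limma, SE 0.06, adjusted p = 1.5e-04), with no overlap between groups. Of the 31-base words of its longest transcript, 47.3% also occur in other genes, with 43.9% in the unprocessed pseudogene Gm21451. Reads in such words could be split between genes or left uncounted, which was not tested. This limits how the Loxl2 level, share and rank compare with those of other genes. Gm21451 held 18 to 74 reads in a library against 1814 to 3090 for Loxl2.

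Loxl3 (ENSMUSG00000000693, chromosome 6, 83034173 to 83052562, plus strand), of the same scavenger receptor subgroup, was the least abundant lysyl oxidase in Ad-Con libraries. It rose from 11.3, 12.9 and 12.1 FPKM to 20.7, 22.7 and 17.9 FPKM, with no overlap between groups. Its log2 fold change was 0.74 (limma, SE 0.09, adjusted p = 5.3e-04), a fold of 1.67. On the opposite strand, the exons of Htra2, a mitochondrial serine protease, cover 11.6% of the exon bases of Loxl3. Htra2 itself rose from 17.0, 17.6 and 16.9 to 31.4, 32.2 and 28.2 FPKM, with a log2 fold change of 0.83 (limma, SE 0.06, adjusted p = 3.9e-05). Whether counting used strand is not given in the sources used here, so reads in the shared bases cannot be assigned to one of the genes.

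Loxl4 (ENSMUSG00000025185, chromosome 19, 42593982 to 42612813, minus strand), the remaining paralogue, was at 20.3, 21.9 and 22.2 FPKM in Ad-Con and at 24.7, 28.7 and 23.6 FPKM in Ad-PDK4 libraries. The lowest Ad-PDK4 library lay just above the highest Ad-Con library. This was the smallest rise of the 6, with a fold of 1.19 and a log2 fold change of 0.25 (limma, SE 0.08, adjusted p = 0.037). The call was lost on leaving out any 1 library other than Ad-PDK4 replicate 3. Without Ad-Con replicate 1, 2 or 3 the adjusted p was 0.12, 0.068 or 0.065, and without Ad-PDK4 replicate 1 or 2 it was 0.065 or 0.059 (limma). The log2 fold change then ranged from 0.17, without Ad-PDK4 replicate 2, to 0.28.

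**Figure D2:**
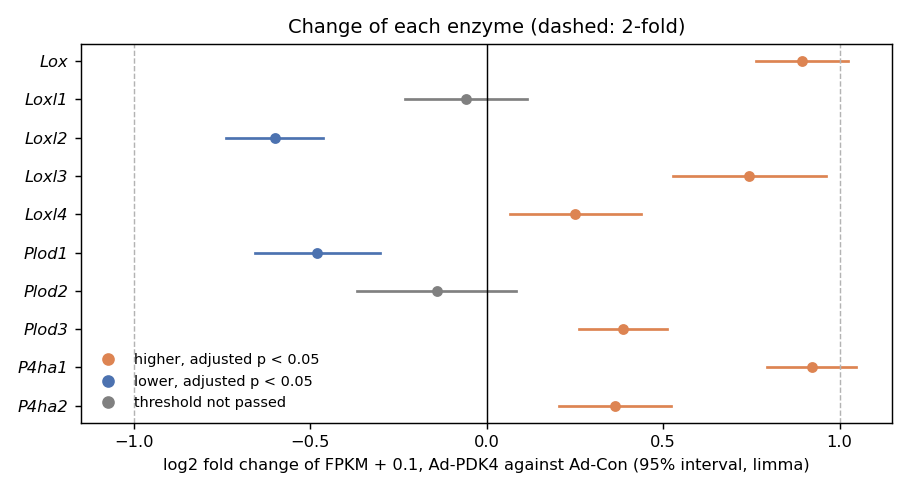
Log2 fold change of FPKM + 0.1 of each enzyme (Ad-PDK4 against Ad-Con, dot) with its 95% interval from limma, and dashed lines at 2-fold. P4ha1 and Lox lie nearest to the 2-fold line, with values of 0.92 and 0.89, and the intervals of Loxl1 and Plod2 cross 0.

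Plod1 (ENSMUSG00000019055, chromosome 4, 147909753 to 147936767, minus strand) encodes lysyl hydroxylase 1, which acts on lysines of the collagen helix. It was at 9.01, 8.92 and 8.06 FPKM in Ad-Con and fell to 5.95, 6.66 and 5.96 FPKM in Ad-PDK4 libraries. The groups did not overlap, and the log2 fold change was -0.48 (limma, SE 0.08, adjusted p = 1.7e-03), a fold of 0.717. In Ad-PDK4 libraries Plod1 was the least abundant of the 10 transcripts.

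Plod2 (ENSMUSG00000032374, chromosome 9, 92542223 to 92608428, plus strand) encodes lysyl hydroxylase 2, which modifies the telopeptide lysines used in stable cross-links and is a known target of hypoxia signalling. Its level was 17.95, 17.2 and 17.3 FPKM in Ad-Con and 16.7, 13.5 and 17.7 FPKM in Ad-PDK4 libraries. Ad-PDK4 replicate 2 stood below the other libraries, and the groups overlapped. The log2 fold change was -0.14, with a 95% interval of -0.37 to 0.08 (adjusted p = 0.28, limma). Leaving out Ad-PDK4 replicate 2 gave -0.026, and leaving out Ad-PDK4 replicate 3 gave -0.22.

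Plod3 (ENSMUSG00000004846, chromosome 5, 136987019 to 136996648, plus strand) encodes lysyl hydroxylase 3, which also transfers sugars to hydroxylysine. It was the most abundant lysyl hydroxylase, at 37.9, 39.1 and 38.8 FPKM in Ad-Con and 50.8, 53.3 and 47.7 FPKM in Ad-PDK4 libraries. All Ad-PDK4 values were above all Ad-Con values, with a fold of 1.31 and a log2 fold change of 0.39 (limma, SE 0.05, adjusted p = 9.0e-04). Exons of Znhit1 on the opposite strand cover 11.7% of its exon bases. Znhit1 was at 18.8 to 19.2 FPKM in Ad-Con and 20.8 to 22.1 FPKM in Ad-PDK4 libraries.

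P4ha1 (ENSMUSG00000019916, chromosome 10, 59323296 to 59373304, plus strand) encodes the main catalytic alpha subunit of collagen prolyl 4-hydroxylase and, like Plod2, is known as a hypoxia target. Its level rose from 46.2, 50.3 and 47.2 FPKM to 88.9, 88.4 and 95.2 FPKM, with no overlap between groups. The fold was 1.89, a log2 fold change of 0.92 (limma, SE 0.05, adjusted p = 1.0e-05), and 9.25% of genes tested changed by as much or more. This lay within the interval of the Lox change, and the order of the 2 genes depended on the scaling, with log2 fold changes of 0.869 for P4ha1 and 0.871 for Lox under quantile normalization. The means were 90.8 ± 3.83 and 47.9 ± 2.15 FPKM (SD, n = 3).

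P4ha2 (ENSMUSG00000018906, chromosome 11, 54100095 to 54131665, plus strand), the second alpha subunit, was the least abundant of the 10 transcripts in Ad-Con libraries. It was at 8.06, 7.71 and 7.42 FPKM there and at 9.27, 10.2 and 10.4 FPKM in Ad-PDK4 libraries, without overlap. The log2 fold change was 0.36 (limma, SE 0.07, adjusted p = 3.9e-03), a fold of 1.29. P4ha1 was 6.21 ± 0.419 times P4ha2 in Ad-Con and 9.12 ± 0.473 times P4ha2 in Ad-PDK4 libraries (ratio of FPKM, SD, n = 3).

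Within a library, each paralogue's share of the summed FPKM of its family was taken. Lox held 41.4%, 41.4% and 41.6% of the lysyl oxidase sum in Ad-Con and 56.4%, 53.8% and 60.0% in Ad-PDK4 libraries. The share of Loxl1 was 25.9% ± 1.14 in Ad-Con and 18.3% ± 1.21 in Ad-PDK4 libraries, and that of Loxl2 was 15.2% ± 0.677 and 7.36% ± 0.280 (SD, n = 3). Loxl3 held 6.29% ± 0.127 and 7.81% ± 0.876, and Loxl4 held 11.2% ± 0.366 and 9.79% ± 0.894. The sum itself was 184 to 202 FPKM in Ad-Con and 257 to 266 FPKM in Ad-PDK4 libraries.

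Among the lysyl hydroxylases, Plod3 held 59.6% ± 1.03 of the sum in Ad-Con and 69.5% ± 2.88 in Ad-PDK4 libraries, Plod2 held 27.0% ± 0.632 and 22.0% ± 3.29, and Plod1 held 13.4% ± 0.718 and 8.51% ± 0.507 (SD, n = 3). P4ha1 held 86.1% ± 0.833 and 90.1% ± 0.464 of the P4ha1 and P4ha2 sum. Each of the 10 shares differed without overlap between groups. In an exact two-sided permutation test each gave p = 0.1, before and after adjustment over the 10 shares, which is the smallest p that 3 against 3 libraries allow. Shares within a family add up to the whole, so they are not separate results, and the P4ha2 share mirrors that of P4ha1. The Loxl4 share fell though its level rose, and the Loxl1 and Plod2 shares fell though their levels overlapped between groups.

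**Figure D3:**
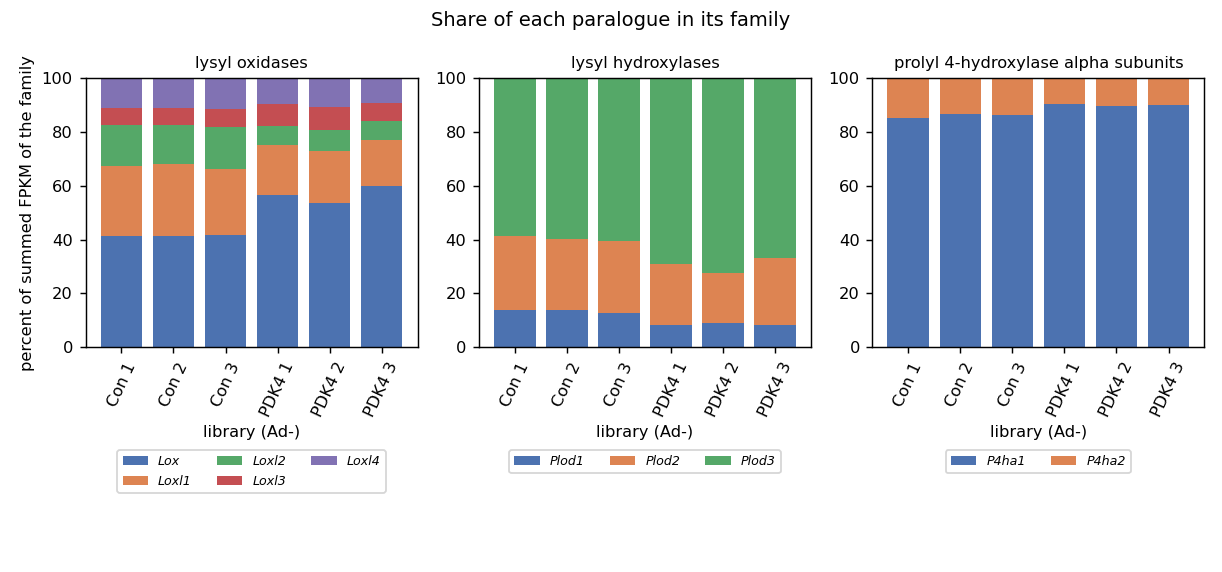
Stacked bars of the percent of the summed FPKM of each family taken by each paralogue, 1 bar a library. The Lox part is about 41% in the Ad-Con bars and 53.8% to 60.0% in the Ad-PDK4 bars, and the Plod3 part 66.8% to 72.6% in the Ad-PDK4 bars.

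Ordered by mean FPKM, the Ad-Con libraries ran Lox, Loxl1, P4ha1, Plod3, Loxl2, Loxl4, Plod2, Loxl3, Plod1 and P4ha2. Of the neighbours in this order, only Loxl1 and P4ha1 overlapped between libraries (exact permutation p = 0.6, two-sided). In Ad-PDK4 libraries the order was Lox, P4ha1, Plod3, Loxl1, Loxl4, Loxl3, Loxl2, Plod2, P4ha2 and Plod1. There Plod3 overlapped with Loxl1 (exact permutation p = 0.5) and Loxl3 with Loxl2 (exact permutation p = 0.6). P4ha1 thus moved from rank 3 to rank 2, with no overlap with Loxl1 in Ad-PDK4 libraries, and Loxl2 from rank 5 to rank 7. For all other neighbours the ranges over the libraries of a group did not overlap, at the smallest possible p of 0.1. The test did not pair the values of 2 genes within a library, so its p also holds the spread between libraries. Within each Ad-PDK4 library Plod3 was above Loxl1, at 50.8 against 48.2, 53.3 against 51.1 and 47.7 against 44.2 FPKM.

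The fibrillar chains on which these enzymes act fell, as Loxl2 and Plod1 did and unlike the 6 enzymes that rose. Of 8 substrate chains, 6 were measured above the filter. All 6 were lower at an adjusted p below 0.05 (Col1a1, Col3a1, Col11a1, Col1a2, Col5a2 and Col5a1), beside 20.8% of all genes tested. Their median log2 fold change was -0.82. Col1a1, the alpha 1 chain of type I collagen, went from 1055 ± 42.4 to 435 ± 49.5 FPKM (SD, n = 3), a log2 fold change of -1.28 (limma, SE 0.08, adjusted p = 1.3e-05). Col3a1, the chain of type III collagen, had a log2 fold change of -0.86 (limma, SE 0.05, adjusted p = 1.2e-05). Col5a1, the smallest fall at -0.21 (adjusted p = 0.049, limma), lost its call without Ad-Con replicate 1 or 2 or Ad-PDK4 replicate 1 or 3 (adjusted p of 0.14, 0.13, 0.15 and 0.13). Eln, the elastin gene, and Col2a1 did not reach 0.5 FPKM.

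Summed over the 6 chains, the level was 1652, 1657 and 1546 FPKM in Ad-Con and 746, 863 and 749 FPKM in Ad-PDK4 libraries. The sum of the 10 enzymes was 303, 325 and 311 FPKM in Ad-Con and 429, 438 and 439 FPKM in Ad-PDK4 libraries. Per 100 FPKM of chains, the enzymes thus stood at 18.3, 19.6 and 20.1 FPKM in Ad-Con and at 57.5, 50.8 and 58.6 FPKM in Ad-PDK4 libraries. The groups lay far apart in this ratio, by 2.87-fold. Abundant genes weigh most in both sums. Mean levels went from 1055 to 435 FPKM for Col1a1, from 79.8 to 148 for Lox and from 47.9 to 90.8 for P4ha1, while Loxl2 and Plod1 fell. The family sums alone differed 1.81-fold for P4ha1 and P4ha2, 1.36-fold for the lysyl oxidases and 1.12-fold for the lysyl hydroxylases. By family, the ratio to the chains differed 3.75-fold for the alpha subunits P4ha1 and P4ha2, 2.81-fold for the lysyl oxidases and 2.32-fold for the lysyl hydroxylases. These ratios were computed after the values had been seen and carry no test.

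**Figure D4:**
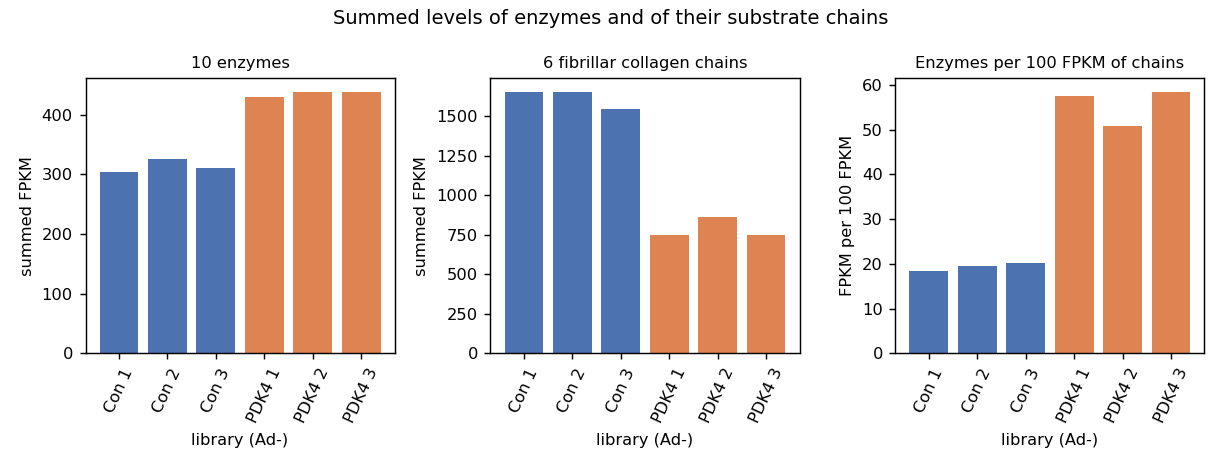
Bars of the summed FPKM of the 10 enzymes (left), the summed FPKM of 6 fibrillar chains (middle) and the enzymes per 100 FPKM of chains (right), 1 bar a library, with Ad-Con in blue and Ad-PDK4 in orange. Enzyme sums were 303 to 325 against 429 to 439 FPKM, chain sums 1546 to 1657 against 746 to 863 FPKM.

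Among 12 ER partners of collagen modification, 11 were tested, 1 was higher, 5 were lower (P4hb, P4ha3, Fkbp10, P3h1 and P3h4) and 5 did not pass. The shares over all genes tested were 21.8% higher and 20.8% lower. P4hb, protein disulfide isomerase and the beta subunit of prolyl 4-hydroxylase, fell from 450, 446 and 435 to 294, 307 and 315 FPKM (log2 fold change -0.54, limma SE 0.05, adjusted p = 6.4e-05). P4hb was 7.98 ± 0.300 times the sum of P4ha1 and P4ha2 in Ad-Con and 3.03 ± 0.0720 times that sum in Ad-PDK4 libraries (ratio of FPKM, SD, n = 3). P4ha3, a further alpha subunit, fell as well, from 7.99, 9.63 and 9.13 to 6.85, 7.02 and 5.96 FPKM (log2 fold change -0.43, limma SE 0.09, adjusted p = 8.0e-03). It is not among the 10 enzymes and was left out of the alpha subunit sums, shares and ratios. Its Ad-Con mean of 8.92 FPKM was above the 7.73 FPKM of P4ha2. Serpinh1, the collagen chaperone Hsp47, was the one that rose, with a log2 fold change of 0.37 (limma, SE 0.05, adjusted p = 8.3e-04). P3h4 lost its call without Ad-Con replicate 1 or 2 or Ad-PDK4 replicate 1 or 3 (adjusted p of 0.086, 0.073, 0.074 and 0.051, limma). The list's median log2 fold change was -0.13.

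All 6 of the 8 procollagen processing genes that were tested passed the threshold, 2 higher and 4 lower, beside 21.8% and 20.8% of all genes. Their median was -0.51 on the log2 scale. Tll1, a protease of the BMP1 family, was low and rose from 0.633, 0.668 and 0.562 to 2.58, 2.53 and 3.03 FPKM, while Bmp1 itself, which also activates the Lox proenzyme, fell from 51.5, 56.3 and 51.3 to 36.3, 36.8 and 32.4 FPKM. Both passed at limma adjusted p of 3.1e-05 and 3.0e-04. The enhancer proteins of procollagen C-propeptide cleavage, Pcolce and Pcolce2, split. Their log2 fold changes were 0.46 and -2.06 (limma adjusted p = 4.6e-04 and 2.4e-06). Adamts2, which removes the N-propeptide, had a log2 fold change of -0.85 (limma, SE 0.10, adjusted p = 3.0e-04). Bmp1 lies outside the naming rule and was named after its values were seen.

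Of 12 elastic fibre partners of lysyl oxidases, 9 were tested, 2 rose, 3 fell and 4 did not pass (median log2 fold change 0.09). Beside these counts, 21.8% of all genes rose and 20.8% fell. Fbln5, a fibulin that brings lysyl oxidases to elastin, rose by 0.55 on the log2 scale (limma, SE 0.05, adjusted p = 1.7e-04). Efemp2, the fibulin that binds Lox, rose by 0.19 on that scale (adjusted p = 0.031, limma). That call was lost without Ad-Con replicate 1 or 3 or Ad-PDK4 replicate 1 or 2, with adjusted p of 0.10, 0.077, 0.11 and 0.074. Ltbp4 had a log2 fold change of -1.81 (SE 0.13) and Fn1, fibronectin, one of -1.17 (SE 0.08), at limma adjusted p of 3.9e-05 and 2.0e-05.

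The cofactor genes were mixed, beside 21.8% of all genes that rose and 20.8% that fell. Of 6 copper supply genes 5 were tested, of which Atp7a, the pump that loads copper into the secretory pathway, rose (log2 fold change 0.38, limma adjusted p = 4.9e-03), and Atox1 and Slc31a1 fell (-0.34 and -0.21, limma adjusted p = 0.018 and 0.044). Atox1 lost its call without Ad-Con replicate 2 or 3 or Ad-PDK4 replicate 2 or 3 (adjusted p of 0.055, 0.061, 0.057 and 0.054). Slc31a1 lost it on leaving out any library other than Ad-Con replicate 1, with adjusted p of 0.12 and 0.14 without Ad-Con replicate 2 and 3 and of 0.078, 0.074 and 0.10 without Ad-PDK4 replicate 1, 2 and 3. Of the copper genes, 2 were higher when Ad-PDK4 replicate 3 was left out. Of 7 ascorbate and iron genes 6 were tested, 3 rose and 2 fell, but only 1 rose without Ad-Con replicate 2. Slc39a14, a zinc and iron transporter named after its values were seen, had a log2 fold change of 0.23 (adjusted p = 0.044, limma) and lost its call on leaving out any 1 library, with adjusted p from 0.070 to 0.11. Slc11a2, an iron transporter, rose from 7.59, 7.99 and 7.03 to 15.8, 16.4 and 18.0 FPKM (log2 fold change 1.14, limma SE 0.07, adjusted p = 1.6e-05). Slc23a2, the ascorbate transporter, had a log2 fold change of 0.26 (adjusted p = 0.015, limma), which became 0.053 as an adjusted p without Ad-Con replicate 2. The ferritin chains Ftl1 and Fth1 fell by 0.73 and 0.24 on the log2 scale (limma adjusted p = 3.8e-04 and 5.5e-03), but under quantile normalization Ftl1 was at -0.30 and Fth1 at 0.16, with the opposite sign.

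Of 10 other 2-oxoglutarate hydroxylases, 3 rose, 1 fell and 6 did not pass, beside 21.8% of all genes that rose and 20.8% that fell. The list's median log2 fold change was 0.09, and without Ad-PDK4 replicate 2 there were 2 that fell. Egln1, the prolyl hydroxylase that marks HIF for degradation, rose by 0.62 on the log2 scale (limma, SE 0.06, adjusted p = 1.4e-04) and Jmjd6, a lysyl hydroxylase of nuclear proteins, by 0.36 (limma, SE 0.06, adjusted p = 2.2e-03). Phyh, phytanoyl-CoA hydroxylase, fell by 0.34 on that scale (limma, SE 0.08, adjusted p = 0.011). The Egln1 rise lay between those of P4ha2 and P4ha1.

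**Figure D5:**
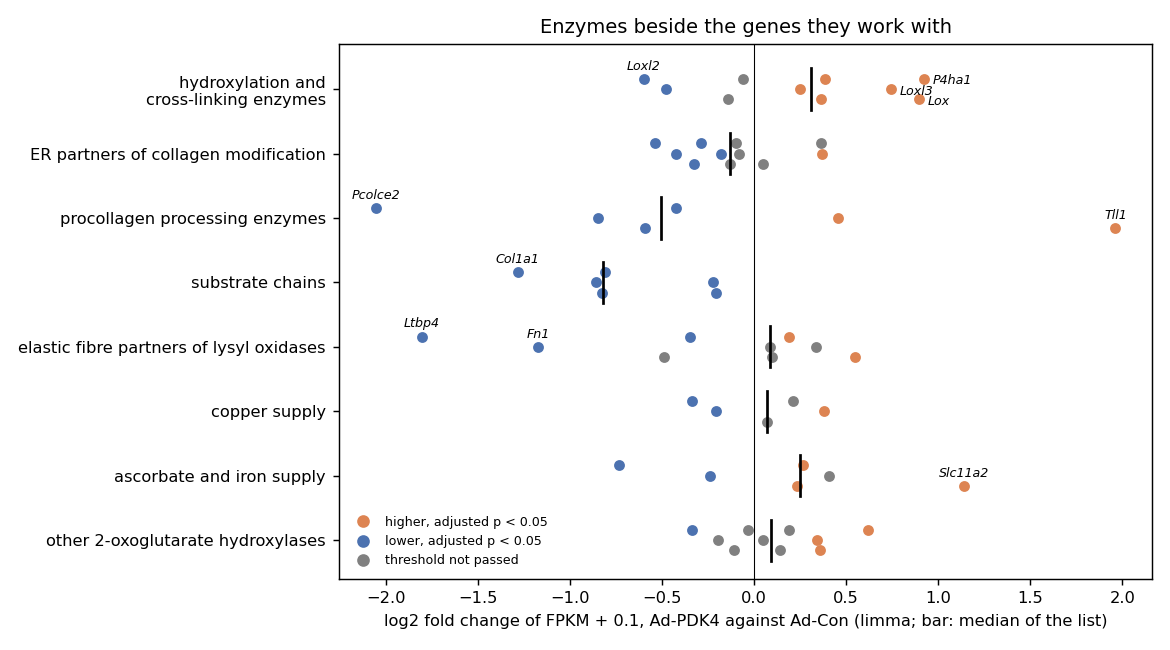
Log2 fold change of FPKM + 0.1 (Ad-PDK4 against Ad-Con) of each tested gene, 1 row a list, coloured by call, with a bar at the list's median. The enzymes' median is 0.31 and that of the substrate chains -0.82. All tested substrate chains lie below 0, and every other row, that of the enzymes included, holds genes on both sides of 0.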

How the data were processed

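Gene expression was measured by RNA-seq in 6 libraries, 3 labelled Ad-Con and 3 labelled Ad-PDK4. Per the labels, the authors trimmed reads with fastp, aligned them with HISAT2 (2.0.5), counted them with featureCounts (1.5.0-p3) and used DESeq2 (1.20.0), and they deposited FPKM values for 54532 genes. The labels and the study's methods name different library kits, and whether counting used strand is not given in the sources used here. The labels name GRCm39, but 98.33% of the gene identifiers shared with GENCODE M21 have its GRCm38 coordinates, 9 of the 10 enzymes among them, and coordinates are given as deposited, on GRCm38. The end of Lox nearest the smaller coordinate differs from that annotation.

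FPKM times gene length gave whole reads for 100% of values (tolerance 0.01 reads), which gave each library's total. The deposited FPKM of a library rest on a library size in proportion to its size factor. From them, log2(FPKM + 0.1) was tested with limma (3.58.1, R 4.3.3; trend and robust empirical Bayes, no covariates) over 13423 genes with a mean of at least 0.5 FPKM, with Benjamini-Hochberg adjustment. The model was first run on simulated data with a common dispersion, few changed genes and changes of at least 2-fold. Those settings differ from these data, so that run does not bear on smaller changes such as those of the enzymes. Replicates are separate libraries, stated by the study to be biological, and SDs are between libraries. Same-numbered libraries of the 2 groups did not deviate together (correlations of -0.046, -0.031 and -0.001), so no pairing was used. Shares and neighbours in the order of levels were tested by exact two-sided permutation (Python 3.11.15), neighbours without pairing within libraries.

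The enzymes, the 7 pathway lists and the 4 marker lists were chosen with earlier results of these data known. All 10 enzymes were named, and in each pathway list those 2 called genes that rose most and those 2 that fell most. Htra2, Znhit1 and Gm21451 were added as neighbours or near copies, and marker genes that were named, Bmp1, Slc39a14, Eln and the remaining chains and partners given by name lie outside this rule and were named after their values were seen. Alternatives were other pseudocounts, filters, scalings and models, a replicate block and each library left out. Protein sequences were not used here, and no sequence is printed for the other enzymes.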

Additional observations from a re-analysis of the deposited data

How the results depend on the processing

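With 17 alternatives for each of the 10 enzymes, 161 log2 fold changes kept their direction and side of the threshold, 8 lost the call and 1 changed sign. The 8 were all of Loxl4: besides the 5 left-out libraries given above, its adjusted p was 0.078 without a filter beyond a mean FPKM above 0, 0.072 under quantile normalization and 0.075 in limma without trend and robust estimation. The change of sign was that of Loxl1 without Ad-Con replicate 2 (0.0028), against -0.11 without Ad-PDK4 replicate 2. Among other genes, Col5a1, P3h4 and Slc31a1 lost their calls in TPM (adjusted p = 0.098, 0.066 and 0.078). Without the filter, Efemp2, Col5a1, Slc31a1 and Slc39a14 lost theirs (0.060, 0.098, 0.084 and 0.075), and in limma without trend and robust estimation Efemp2, Col5a1, Slc31a1 and P3h4 did (0.071, 0.091, 0.062 and 0.056). Slc39a14 also lost its call under quantile normalization (0.054) and without mtDNA-encoded genes (0.066). Fth1 had a log2 fold change of 0.16 under quantile normalization, with the cause not tested. Under the replicate block, 6 enzymes were higher and 2 lower, as without it, and of the genes named only Slc31a1, Znhit1 and Slc39a14 lost a call (adjusted p = 0.077, 0.054 and 0.084). Limma-voom on the recovered reads also called the same 8 enzymes.

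Taking shares of recovered reads, which are not per length, in place of FPKM moved the difference in share to -5.87 percentage points for Loxl1, -9.72 for Loxl2, -6.15 for Plod1 and 5.40 for P4ha1, from -7.59, -7.85, -4.87 and 4.01, with no change of direction. The 2.87-fold difference in enzymes per chain was 2.80 to 2.998 with 1 library left out and 2.73 in recovered reads, alternatives chosen after seeing the data. With 3 libraries a group, a difference the size of those of Loxl1 and Plod2 was not resolved, and neither gene is shown to be unchanged. The 6 libraries cannot reach p = 0.05 in a permutation test.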
